A study of Rattus norvegicus with 75 samples.

Results

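The aquaporins are a family of membrane channels that let water, and in some members glycerol or ions, cross a cell membrane. Their messenger RNAs were followed here in microdissected kidney tubules of rats fed lithium. The 7 members are Aqp1, Aqp2, Aqp3, Aqp4, Aqp5, Aqp6 and Aqp11, taken by gene symbol from the table of 32754 genes, in which each symbol had its own row. The study measured polyadenylated RNA by RNA sequencing in 75 libraries, 53 from the cortical collecting duct (CCD) and 22 from the cortical thick ascending limb (cTAL). All rats were male Sprague-Dawley animals of 120 to 160 g. Controls ate food without lithium, and treated rats ate food that held lithium chloride (LiCl) at 40 mM per kg. CCD was taken after 12 h (3 control and 2 lithium libraries), 24 h (3 and 3), 36 h (3 and 3) and 72 h (17 and 19), and cTAL only after 72 h (12 and 10). The light and dark phases lasted 12 h each, so groups of different hours can also differ in clock time. If all rats began the diet at the same hour, 12 and 36 h share a clock time, as do 24 and 72 h. In other contrasts between times, among controls too, hours on the diet and clock time cannot be told apart.

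Principal cells of the collecting duct take up water when vasopressin binds its V2 receptor (Avpr2): cyclic AMP rises, vesicles that carry Aqp2 fuse with the apical membrane, and transcription of the Aqp2 gene increases. Water then leaves through Aqp3 and Aqp4 in the basolateral membrane. Lithium enters these cells through the epithelial sodium channel, and long-term lithium is known to lower Aqp2 and to leave the kidney unable to concentrate urine, a state called nephrogenic diabetes insipidus. Aqp6 sits in intracellular vesicles of acid-secreting intercalated cells, Aqp1 in the proximal tubule and descending thin limb, and Aqp11 inside proximal tubule cells, while Aqp5 is best known from glands and airways.

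Aqp2, Aqp5 and Aqp6 are consecutive protein-coding genes of rat chromosome 7 in RefSeq, and Aqp3 lies beside Aqp7 on chromosome 5. The 250 bases before the RefSeq start of these 4 genes (assembly GRCr8, written 5′ to 3′ on the gene's strand) are shown because neighbours in this cluster differed widely in level and because Aqp2 and Aqp3 were the most abundant members of CCD. The assembly differs from the build behind the expression values, so these coordinates serve the sequences only. Capitals mark matches to 4 motifs: the cyclic AMP response element (CRE) TGACGTCA, its core TGACG, the GATA motif AGATAA and the TATA box TATAAA.
Aqp2 (chr7:132590036-132590285, forward strand): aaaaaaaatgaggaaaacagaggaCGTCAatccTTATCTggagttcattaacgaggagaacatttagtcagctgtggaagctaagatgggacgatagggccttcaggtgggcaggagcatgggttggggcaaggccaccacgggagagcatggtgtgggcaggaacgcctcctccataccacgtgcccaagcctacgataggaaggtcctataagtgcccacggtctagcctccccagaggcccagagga
Aqp5 (chr7:132601278-132601527, forward strand): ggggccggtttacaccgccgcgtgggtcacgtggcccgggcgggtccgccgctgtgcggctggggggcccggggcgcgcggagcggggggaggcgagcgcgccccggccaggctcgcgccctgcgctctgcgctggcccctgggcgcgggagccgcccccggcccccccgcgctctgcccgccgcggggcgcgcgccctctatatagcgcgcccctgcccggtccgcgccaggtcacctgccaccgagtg
Aqp6 (chr7:132610819-132611068, forward strand): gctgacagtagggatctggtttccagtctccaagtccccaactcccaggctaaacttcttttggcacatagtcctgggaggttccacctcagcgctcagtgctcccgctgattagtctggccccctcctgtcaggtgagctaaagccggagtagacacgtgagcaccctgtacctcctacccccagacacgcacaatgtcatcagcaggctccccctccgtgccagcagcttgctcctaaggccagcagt
Aqp3 (chr5:61040684-61040933, reverse strand): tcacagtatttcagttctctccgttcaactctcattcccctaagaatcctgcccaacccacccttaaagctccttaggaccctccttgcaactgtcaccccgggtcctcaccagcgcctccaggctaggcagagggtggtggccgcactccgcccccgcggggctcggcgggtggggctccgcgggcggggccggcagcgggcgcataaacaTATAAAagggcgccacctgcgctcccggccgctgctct
In Aqp2, capital CGTCA at 226 bases before the start is the CRE core on the opposite strand, and TTATCT at 217 bases before the start is the GATA motif on the opposite strand. Aqp3 has a TATA box 38 bases before its start. No letters of these motifs were found in the Aqp5 and Aqp6 windows. The search covered both strands for the first 3 motifs and the gene's strand for TATAAA, in windows of 300 bases (250 before and 50 after the start), and TGACG is part of TGACGTCA. Over 33469 such RefSeq windows, 1.83% held TGACGTCA, 21.2% TGACG, 11.6% AGATAA and 8.80% TATAAA. All 7 members had a window, and of the 3 not shown, only Aqp1 had a match, a TATA box 30 bases before its start. A match is a description of letters and not of a bound site.

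Values are TPM, a transcript abundance scaled to transcript length and to the library total, so levels can be compared between genes. Each library had 10888 to 12411 genes at 1 TPM or more. The segment labels were checked against marker genes. Thick ascending limb markers summed to 49945 to 87746 TPM in cTAL and to 103 to 1008 TPM in CCD, and intercalated cell markers summed to 8546 to 16564 TPM in CCD and to 348 to 539 TPM in cTAL. Libraries also fell into sets within groups. By 12 genes that had 2 separate levels across libraries, chosen without the aquaporins, the control CCD libraries at 72 h split into 4 sets (replicates 1 to 4, 5 to 8, 9 to 12 and 13 to 17) and the lithium libraries into 4 (1 to 6, 7 to 11, 12 to 15 and 16 to 19). The cTAL libraries shared these 8 sets, and each group at 12, 24 and 36 h was a single set. The 12 genes did not set all of these early groups apart from each other. Libraries of different early groups differed at as few as 1 gene, and libraries of the same early group at up to 2. The labels do not say whether a set comes from 1 rat. Each set holds libraries of 1 treatment. At 12, 24 and 36 h, where each group is 1 set, set and treatment cannot be told apart. P-values over libraries measure the spread between these libraries only. Results at 72 h are therefore also given on the means of 4 control and 4 lithium sets. For the earlier times a fit of set means has 1 value in each group and takes its spread from the sets at 72 h, so it says nothing of the spread within those groups.

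The collecting duct held 4 aquaporins at high or moderate levels, in the order Aqp2, Aqp3, Aqp6 and Aqp4, and 3 near 1 to 3 TPM. Over the 53 CCD libraries, Aqp2 (ENSRNOG00000054378) ranged from 1824 to 7340.4 TPM with a median of 3924, and Aqp3 (ENSRNOG00000009797) from 1355 to 5613 with a median of 2757. Aqp6 (ENSRNOG00000053181) ranged from 89.8 to 720.5 TPM (median 198) and Aqp4 (ENSRNOG00000016043) from 27.4 to 170 TPM (median 63.9). The order Aqp3 over Aqp6 over Aqp4 held in 53 of 53 CCD libraries. In control CCD groups, the mean of Aqp2 ranked between 9 and 14 among all 32754 genes, and that of Aqp3 between 14 and 33. Aqp5 (ENSRNOG00000051970), Aqp11 (ENSRNOG00000013358) and Aqp1 (ENSRNOG00000011648) had CCD means of 1.88, 1.33 and 2.63 TPM. Aqp5, which lies between Aqp2 and Aqp6 on the chromosome, was thus far below both neighbours.

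**Figure D1:**
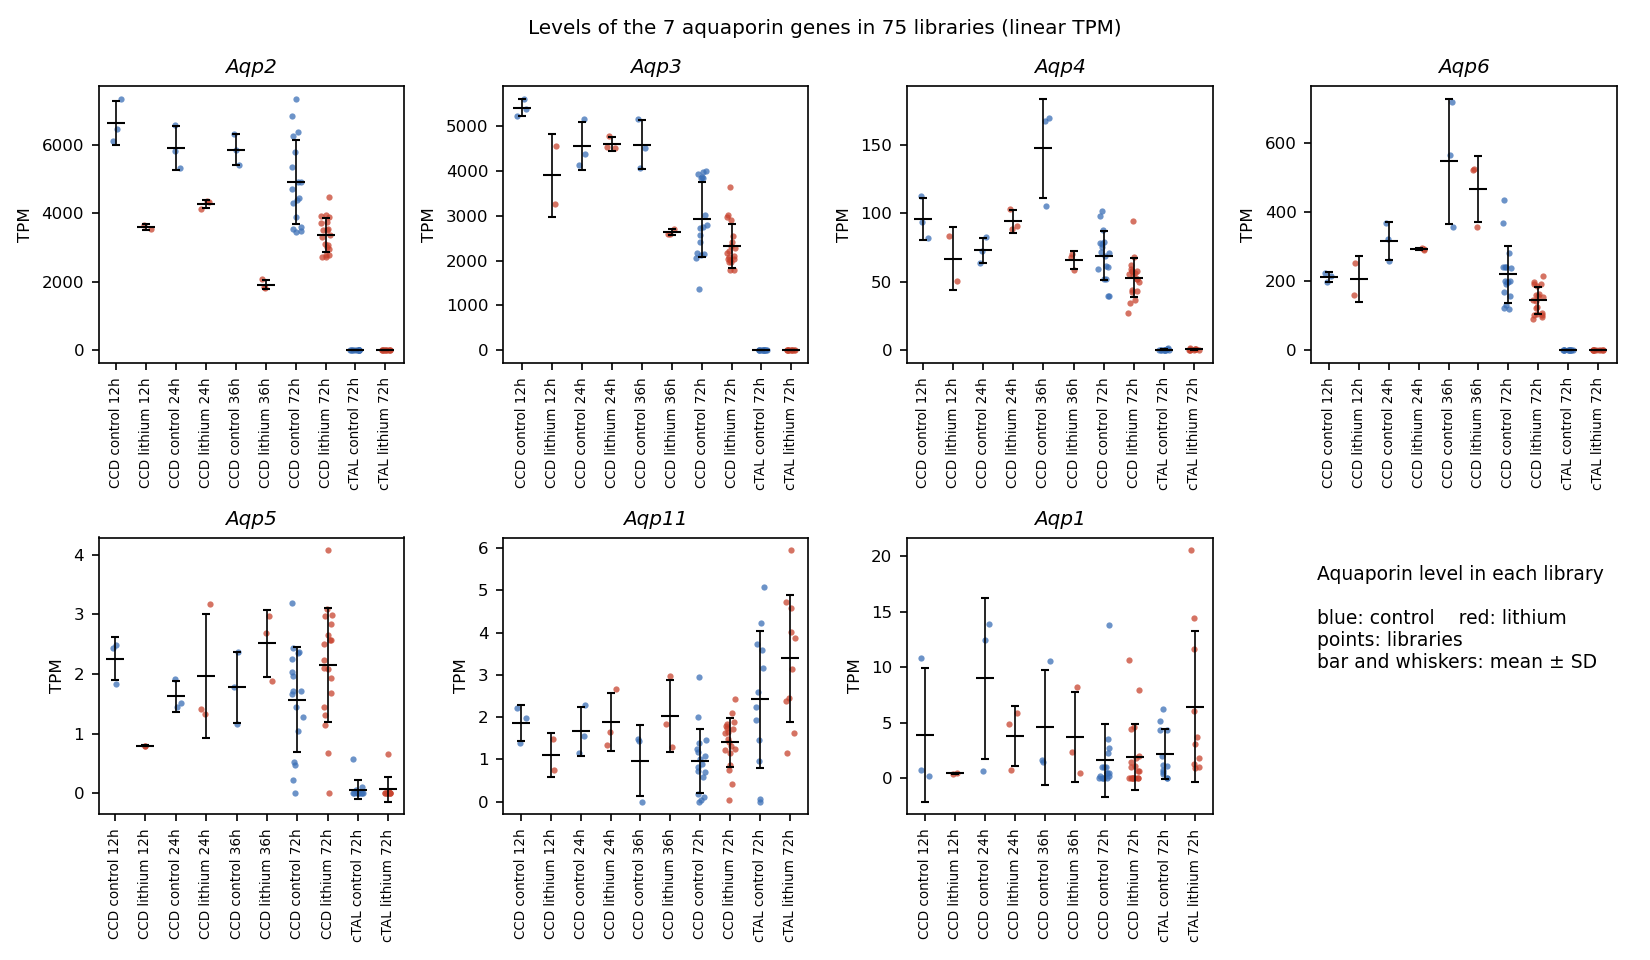
Level of each of the 7 aquaporins in TPM (vertical axis, linear, own scale per gene) in every library of the 10 groups (horizontal axis). Points are libraries, blue for control and red for lithium, and bars with whiskers are the mean ± SD; in CCD, the 3 lithium libraries at 36 h hold the lowest Aqp2 group mean, 1913 TPM, against 5854 TPM in controls.

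Control CCD and control cTAL at 72 h were compared to see which aquaporins mark the collecting duct. Aqp2, Aqp3, Aqp4, Aqp5 and Aqp6 were higher in CCD, Aqp11 was higher in cTAL, and Aqp1 did not pass the test. In limma with Benjamini-Hochberg adjustment, 6 of 7 members were called, where 68.4% of all genes tested were called, 49.8% as higher and 18.6% as lower in CCD. On the log2(TPM + 1) scale, Aqp2 was higher in CCD by 9.72 (SE 0.14), Aqp3 by 9.17 (SE 0.16), Aqp6 by 7.29 (SE 0.15) and Aqp4 by 5.70 (SE 0.14). In the 22 cTAL libraries, Aqp2 ranged from 1.33 to 9.68 TPM, Aqp3 from 0.90 to 12.2, Aqp4 from 0.05 to 1.44 and Aqp6 from 0 to 1.25. Aqp5 was higher in CCD by 1.19 (SE 0.17, adjusted p = 1.76e-08) and was listed at 0 in 17 of 22 cTAL libraries. Aqp11 was lower in CCD by 0.70 on the log2 scale (-0.70, SE 0.22, adjusted p = 0.00337), a call lost on set means (-0.45, adjusted p = 0.322) and when control set 3 (-0.45, adjusted p = 0.113) or control set 4 (-0.44, adjusted p = 0.121) was left out.

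Lithium was compared with control at each time to see when the water channels respond. In CCD, Aqp2 was lower at all 4 times, Aqp3 at 12, 36 and 72 h, Aqp4 at 36 and 72 h, Aqp6 at 72 h and Aqp5 at 12 h, and no member was called higher. At 72 h, 4 of 6 tested members were called lower, where 37.3% of all genes were called and 15.2% were called lower. At 36 h, 3 of 7 members were called lower, against 34.8% called and 9.28% called lower. At 24 h it was 1 of 7, against 25.7% and 5.77%, and at 12 h 3 of 6, against 11.7% and 3.78%. A large share of all genes thus passed the same tests, and the members' counts are to be read against it. Markers of other cells also differed: of 13 intercalated cell genes, 1, 6, 5 and 13 were lower at 12, 24, 36 and 72 h, and of 12 proximal tubule genes tested at 24 h, 5 were lower (sums of 224 to 874 TPM in controls and 70.1 to 133 TPM with lithium). Their part in the members' results was not tested. The median of all tested genes was itself 0.13 above control at both 24 and 36 h on the log2(TPM + 1) scale; median-of-ratios scaling brought it to -0.01 at both times and left every member call there as it was.

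**Figure D2:**
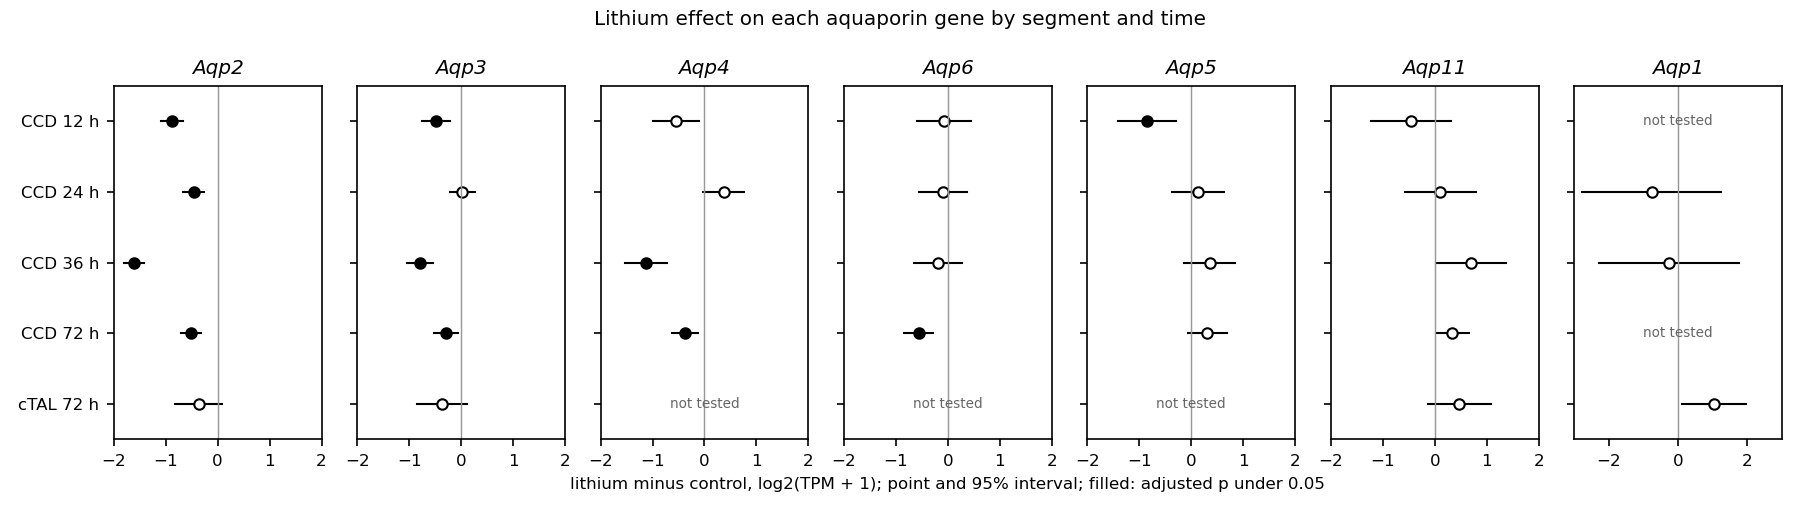
Lithium minus control for each aquaporin in log2(TPM + 1) (horizontal axis, a wider range for Aqp1) by segment and time (vertical axis), with 95% intervals. Filled points have an adjusted p under 0.05; Aqp2 is left of 0 with a filled point at 12, 24, 36 and 72 h in CCD, and no point is filled in cTAL.

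Aqp2, the vasopressin-regulated apical water channel, was lower with lithium at every time, with the deepest loss at 36 h. At 12 h the control libraries held 6442, 7340.4 and 6097 TPM and the lithium libraries 3540.2 and 3653 TPM. At 24 h the controls held 6579.6, 5325 and 5800.1 TPM and the lithium libraries 4348, 4124 and 4323 TPM. In both cases every lithium library lay below every control, and the lithium libraries were close to each other.
At 36 h the controls held 5853, 6319.7 and 5389 TPM and the lithium libraries 1844, 1824 and 2072 TPM, again without overlap. At these times, groups did not overlap for 34.5% (12 h), 44.3% (24 h) and 49% (36 h) of all genes tested. At 72 h the control libraries ran from 3434 to 7328 TPM (median 4706) and the lithium libraries from 2727 to 4469 TPM (median 3366). These ranges overlapped, with 10 of 19 lithium values under the lowest control. For 2.02% of all genes the groups did not overlap at 72 h.

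As means, Aqp2 was 6626 ± 642 TPM (SD, n = 3) in controls and 3597 ± 80.0 (n = 2) with lithium at 12 h, 5902 ± 633 and 4265 ± 123 (n = 3 each) at 24 h, 5854 ± 465 and 1913 ± 138 (n = 3 each) at 36 h, and 4908 ± 1230.0 (n = 17) and 3371 ± 495 (n = 19) at 72 h. Lithium thus left 54.3%, 72.3%, 32.7% and 68.7% of the control mean at 12, 24, 36 and 72 h. In limma the differences on the log2(TPM + 1) scale were -0.88 (SE 0.10, adjusted p = 3.23e-05), -0.46 (SE 0.09, adjusted p = 0.00136), -1.61 (SE 0.09, adjusted p = 1.34e-09) and -0.51 (SE 0.09, adjusted p = 1.66e-05). In bulk segments, fewer principal cells and less Aqp2 RNA per cell cannot be told apart. On set means the 72 h difference was -0.53 and was not called (adjusted p = 0.0725).

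The lithium effect on Aqp2 was not the same at all times, which can also differ in clock time and in library set. A moderated F test of the 4 effects in a joint limma fit gave F = 9.04 (adjusted p = 0.00214), where 8.43% of all genes were called, and Aqp2 was the only member called. The effect at 36 h was lower than that at 24 h by a log2 difference of -1.15 (SE 0.29, adjusted p = 0.0209), where 1.6% of genes were called and 0.712% lower, and the effect at 72 h was above that at 36 h by 1.10 (SE 0.22, adjusted p = 0.000945), where 4.02% were called and 0.85% higher. The contrast of 36 h with 24 h missed the threshold in 5 of the 12 fits that left out 1 library: control replicate 2 or lithium replicate 3 at 24 h, and control replicate 2 or lithium replicate 1 or 2 at 36 h, with differences between -1.14 and -1.08 and adjusted p of 0.0511 to 0.0711. None of the 3 time results was called on set means, where each group before 72 h is 1 value. In the order of Aqp2 group means, the controls at 12, 24, 36 and 72 h came first, and neighbours among them overlapped within 1 SD. Lithium at 24 h overlapped the control at 72 h but not the lithium groups at 12 and 72 h, which overlapped each other, and lithium at 36 h stood below all.

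**Figure D3:**
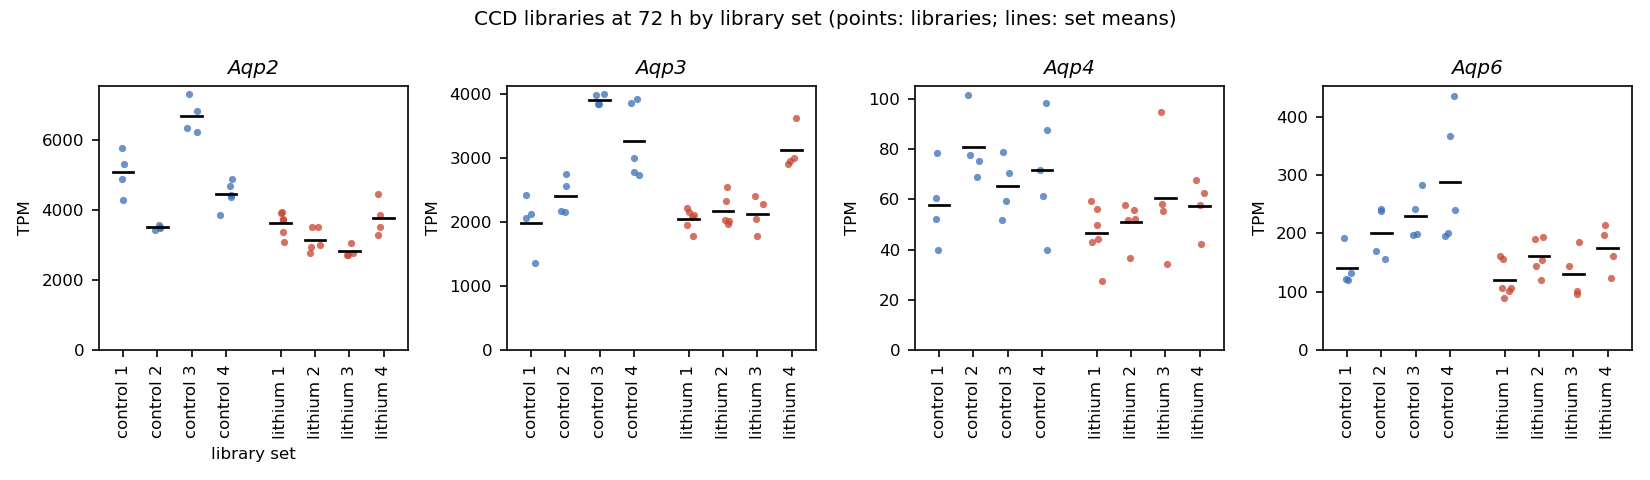
TPM (vertical axis, from 0) of Aqp2, Aqp3, Aqp4 and Aqp6 in CCD libraries at 72 h by library set (horizontal axis), with points for libraries and lines for set means. Aqp2 set means run from 3509 to 6691 TPM in controls and from 2828 to 3793 TPM with lithium.

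Most of the spread of Aqp2 among controls at 72 h lay between library sets. Within control sets the SD of log2(TPM + 1) was 0.12, and between the 4 set means it was 0.39, while the lithium values were 0.15 and 0.19. The control set means were 5082, 3509, 6691 and 4461 TPM, and the lithium set means 3630.2, 3156, 2828 and 3793 TPM. Control set 2 lay below lithium sets 1 and 4, and the other 3 control sets lay above every lithium set. Leaving out each set in turn moved the Aqp2 difference between -0.65 and -0.37, and it was called each time.

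Aqp3, the basolateral channel through which water leaves principal cells, was lower with lithium at 12, 36 and 72 h and near the control at 24 h. At 12 h the controls held 5234, 5613 and 5373 TPM and the lithium libraries 3251 and 4558 TPM. At 24 h the controls held 5155, 4121 and 4374 TPM and the lithium libraries 4787, 4507 and 4527 TPM. The groups did not overlap at 12 h, although the 2 lithium libraries differed widely, and they overlapped at 24 h.
At 36 h the controls held 4501, 5161 and 4074 TPM and the lithium libraries 2601, 2703 and 2599 TPM. At 72 h the controls ran from 1355 to 3996 TPM (median 2757) and the lithium libraries from 1779.7 to 3630.0 TPM (median 2163). The groups were apart at 36 h, and at 72 h no lithium library lay below the lowest control. Of all genes tested, 34.5% at 12 h and 49% at 36 h had groups that did not overlap. The mean with lithium was 72.2%, 101%, 57.5% and 79.8% of control at 12, 24, 36 and 72 h.

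The log2(TPM + 1) differences of Aqp3 in limma were -0.49 (SE 0.13, adjusted p = 0.0181) at 12 h, 0.02 (SE 0.11, adjusted p = 0.905) at 24 h, -0.79 (SE 0.11, adjusted p = 4.48e-05) at 36 h and -0.29 (SE 0.12, adjusted p = 0.0442) at 72 h. The 24 h value changed sign under median-of-ratios scaling (-0.14, adjusted p = 0.401). The 12 h call was lost without lithium replicate 1 (-0.25, adjusted p = 0.235), under quantile normalization (-0.28, adjusted p = 0.328) and when only its 2 groups were fitted (adjusted p = 0.148), and on set means the differences at 12 h (adjusted p = 0.987) and 36 h (adjusted p = 0.402) were not called. The 72 h call was lost on set means (-0.25, adjusted p = 0.476), with no filter on low values (adjusted p = 0.0941), without the mean-variance trend (adjusted p = 0.0544) and when any of 5 of the 8 library sets was left out, with a difference of -0.14 without control set 3 (adjusted p = 0.368). Among controls, Aqp3 differed with time (F = 12.7, adjusted p = 0.000168; 15.4% of genes called), from 5407 ± 192 TPM (SD, n = 3) at 12 h to 2917 ± 839.6 (n = 17) at 72 h, a call also lost on set means (adjusted p = 0.461). In the order of its group means only the first, control at 12 h, was apart from its next neighbour by more than 1 SD.

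Aqp4, the second basolateral channel, was far less abundant than Aqp3 and was lower with lithium at 36 and 72 h. At 36 h the controls held 170, 167 and 105 TPM and the lithium libraries 58.7, 68.4 and 70.5 TPM. At 24 h the controls held 82.5, 63.9 and 72.2 TPM and the lithium libraries 103, 90.4 and 88.3 TPM. The groups were apart at both times, in opposite directions, and the 24 h difference did not pass the test. Of all genes tested, 44.3% at 24 h and 49% at 36 h had groups that did not overlap.
At 12 h the controls held 81.8, 93.4 and 113 TPM and the lithium libraries 50.5 and 83.2 TPM, and these overlapped. At 72 h the controls ran from 39.7 to 101 TPM (median 70.7) and the lithium libraries from 27.4 to 94.7 TPM (median 55.2), with 3 of 19 lithium libraries below the lowest control.

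The log2(TPM + 1) differences of Aqp4 were -0.55 (SE 0.21, adjusted p = 0.11) at 12 h, 0.37 (SE 0.19, adjusted p = 0.17) at 24 h, -1.12 (SE 0.19, adjusted p = 0.000194) at 36 h and -0.38 (SE 0.12, adjusted p = 0.0137) at 72 h in limma. At 12 h the difference was called under median-of-ratios scaling (-0.61, adjusted p = 0.0315) and without lithium replicate 2 (-0.90, adjusted p = 0.0393), and at 24 h when only its 2 groups were fitted (adjusted p = 0.034). The 72 h call was lost on set means (-0.35, adjusted p = 0.0775), without control set 2 (-0.30, adjusted p = 0.086) and without lithium set 1 (-0.30, adjusted p = 0.0844). The effect at 36 h was below that at 24 h by a log2 difference of -1.49 (SE 0.40, adjusted p = 0.0374), called in 2 of 12 fits that left out 1 library. Controls differed with time (F = 9.33, adjusted p = 0.00141), with the largest mean at 36 h, 147 ± 36.5 TPM (SD, n = 3), against 95.9 ± 15.6 at 12 h, 72.9 ± 9.32 at 24 h and 69.1 ± 17.8 (n = 17) at 72 h, and on set means this was not called (adjusted p = 0.166).

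Aqp2 and Aqp3, both made by principal cells, were also compared as a ratio within each library. In controls Aqp2 exceeded Aqp3 in 3 of 3 CCD libraries at 12, 24 and 36 h and in 17 of 17 at 72 h, and with lithium in 1 of 2 at 12 h, 0 of 3 at 24 h, 0 of 3 at 36 h and 18 of 19 at 72 h. As a geometric mean, Aqp2 was 1.22, 1.298, 1.28 and 1.71 times Aqp3 in controls at 12, 24, 36 and 72 h, and 0.934, 0.926, 0.725 and 1.46 times Aqp3 with lithium. The lithium minus control difference of the log2 ratio was -0.39, -0.49, -0.82 and -0.22 at the 4 times, and at 12, 24 and 36 h every lithium library lay below every control. Exact two-sided permutation tests gave p = 0.2 at 12 h and p = 0.1 at 24 and 36 h, the smallest values these group sizes allow. At 72 h a permutation test gave p = 0.0564 (adjusted p = 0.133 over the 8 ratio tests). Without control set 4 (-0.35, adjusted p = 0.0244) or lithium set 1 (-0.35, adjusted p = 0.0278) the 72 h difference passed, and without control set 1 it was -0.04.

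Aqp2 was also set against the mean log2(TPM + 1) of 16 other principal cell genes, among them Avpr2, the sodium channel subunits and the potassium channel Kcnj1. Lithium minus control, this log2 ratio differed by -1.01 at 12 h, -0.41 at 24 h and -1.23 at 36 h, without overlap of the groups, where exact permutation tests could again not go below p = 0.2, 0.1 and 0.1. At 72 h it was 4.47 ± 0.31 (SD, n = 17) in controls and 4.17 ± 0.21 (n = 19) with lithium, a difference of -0.30 (permutation p = 0.00194, adjusted p = 0.0155). The adjusted p rose to 0.133 without control set 1 (-0.22) or control set 3 (-0.20), to 0.0800 without lithium set 2 (-0.28) and to 0.132 without lithium set 3 (-0.23), and on 4 set means each it was 0.2 (-0.33, exact permutation). Of these 16 genes, 9 were lower and 3 higher at 36 h (median -0.75, all genes 0.13), and 9 were lower and 3 higher at 72 h (median -0.31, all genes -0.00). In control CCD against control cTAL at 72 h, 12 of the 16 were called higher and 3 lower, where 49.8% and 18.6% of all genes were. The list thus holds genes that are not particular to the collecting duct.

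**Figure D4:**
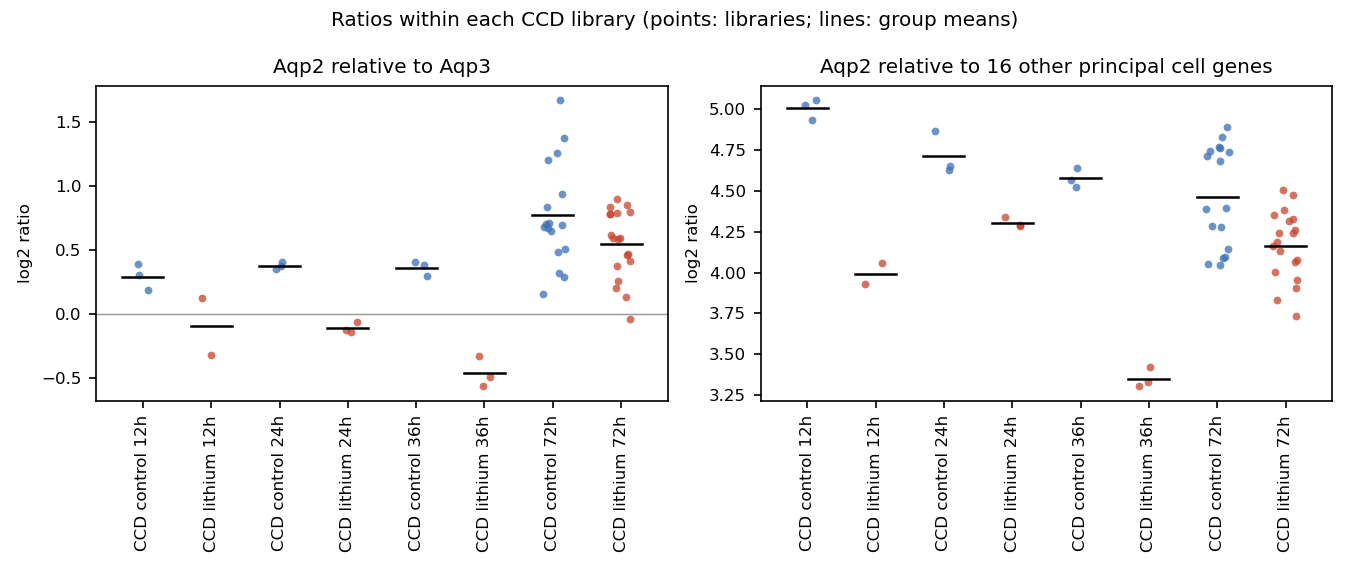
Log2 ratio of Aqp2 to Aqp3 (left) and of Aqp2 to the mean of 16 other principal cell genes (right) in each CCD library (vertical axes), by treatment and time (horizontal axes), with lines at group means. Lithium libraries lie below all controls at 12, 24 and 36 h in both panels, and the groups overlap at 72 h.

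Aqp6, the vesicle channel of intercalated cells, was lower with lithium at 72 h and did not pass the test before. At 72 h the controls ran from 120 to 436 TPM (median 199.6) and the lithium libraries from 89.8 to 215 TPM (median 145), with 6 of 19 lithium libraries below the lowest control. At 36 h the controls held 566, 720.5 and 358 TPM and the lithium libraries 521, 525 and 357 TPM. The 36 h groups overlapped, and both had a higher mean than the groups at other times.
The mean with lithium was 97.4%, 92.5%, 85.3% and 65.8% of control at 12, 24, 36 and 72 h. The log2(TPM + 1) difference at 72 h was -0.56 (SE 0.14, adjusted p = 0.00145 in limma), and those at 12, 24 and 36 h were -0.07, -0.10 and -0.19 (adjusted p = 0.901, 0.789 and 0.523). The 72 h call held when each set was left out (-0.74 to -0.40) and was lost on set means (-0.52, adjusted p = 0.104). Controls differed with time (F = 10.5, adjusted p = 0.000633), from 212 ± 13.3 TPM at 12 h and 317 ± 56.0 at 24 h to 548 ± 182 at 36 h (SD, n = 3 each) and 219.5 ± 83.2 (n = 17) at 72 h, and this call was lost on set means (adjusted p = 0.281).

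Other intercalated cell genes were lower with lithium at 72 h, as was Aqp6. All 13 genes of that list were called lower, with a median of -0.56 on the log2(TPM + 1) scale, and their summed level was 9980 to 15846 TPM in controls and 8546 to 11605 TPM with lithium. Aqp6 minus the mean log2(TPM + 1) of the 13 genes was -1.93 ± 0.41 (SD, n = 17) in controls and -1.93 ± 0.36 (n = 19) with lithium, a difference far within the spread. At 36 h the same quantity was -0.53 ± 0.43 and -0.49 ± 0.33 (n = 3 each), with means above those at the other times in both treatments. Control libraries still overlapped, with the lowest at 36 h at -0.98 and the highest at 72 h at -0.94. These relative values were chosen after the data were seen. Over the 53 CCD libraries, r of the log2 level of Aqp6 with the intercalated cell sum was 0.48. It was 0.59 with the principal cell sum and 0.60 with the endothelial sum, so Aqp6 did not follow the intercalated cell sum most closely. Among 9511 single genes, however, the highest r with Aqp6 was that of Slc4a1 (0.89), a gene of the intercalated cell list. Endothelial markers were lower too at 72 h (7 of 8 tested, with sums of 25.5 to 250.2 TPM in controls and 16.4 to 94.3 TPM with lithium), and their part in the members' results was not tested.

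Aqp5 and Aqp11 were near 1 to 3 TPM in CCD. Aqp5 was 2.44, 2.49 and 1.84 TPM in controls and 0.79 and 0.80 TPM with lithium at 12 h, and this difference of -0.85 (SE 0.26, adjusted p = 0.0451 in limma) was lost in each of the 5 fits that left out 1 library. At 72 h Aqp5 ran from 0 to 3.2 TPM (median 1.72) in controls and from 0 to 4.08 TPM (median 2.24) with lithium, a difference of 0.31 (interval -0.05 to 0.68, adjusted p = 0.18). Its values at 24 h (1.63 TPM in controls, 1.97 with lithium) and 36 h (1.78 and 2.52) also did not pass.
Aqp11 had 72 h means of 0.961 ± 0.751 TPM (SD, n = 17) in controls and 1.40 ± 0.583 (n = 19) with lithium, a difference of 0.34 (interval 0.02 to 0.66, adjusted p = 0.0891), which was called without control set 1 (0.50, adjusted p = 0.0108). At 12, 24 and 36 h its means were 1.86, 1.66 and 0.97 TPM in controls and 1.11, 1.88 and 2.03 TPM with lithium, with no call. All neighbours in the order of group means of Aqp5, Aqp6 and Aqp11 overlapped within 1 SD.

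Aqp1, a channel of the proximal tubule and descending thin limb, varied widely between CCD libraries of the same group and, at 72 h, between library sets. It was listed at 0 in 8 of 53 CCD libraries, was at 1 TPM or more in 24, and reached 13.9 TPM. At 12 h the controls held 0.70, 0.18 and 10.9 TPM, and at 24 h 0.68, 12.5 and 13.9 TPM. At 72 h it ran from 0 to 13.8 TPM in controls (median 0.43) and from 0 to 10.7 TPM with lithium (median 0.62). All 6 libraries of lithium set 1 were at 0 to 0.06 TPM and all 4 of lithium set 4 at 1.83 to 10.7 TPM. Treatment was tested at 24 h (-0.77, adjusted p = 0.608) and 36 h (-0.26, adjusted p = 0.863) only, with no call, since too few libraries reached 1 TPM at the other times.
Of the 10 CCD libraries highest in Aqp1, 8 were also among the 10 highest in the summed level of 14 proximal tubule genes, whose median sum was 222 TPM there and 53.1 TPM in the other libraries. Over the 53 libraries, which share depth and composition with both quantities, r of the log2 values was 0.87. The same count was 5 for endothelial, 2 for descending thin limb and 1 for red blood cell genes. In each CCD group 3 or 4 of the 6 descending thin limb genes had a mean under 1 TPM. Their sum was still 137 to 492 TPM in CCD, against 7.53 to 29.6 TPM in cTAL, so it rests on the few others and does not measure thin limb RNA. The source of Aqp1 RNA in CCD was not tested.

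**Figure D5:**
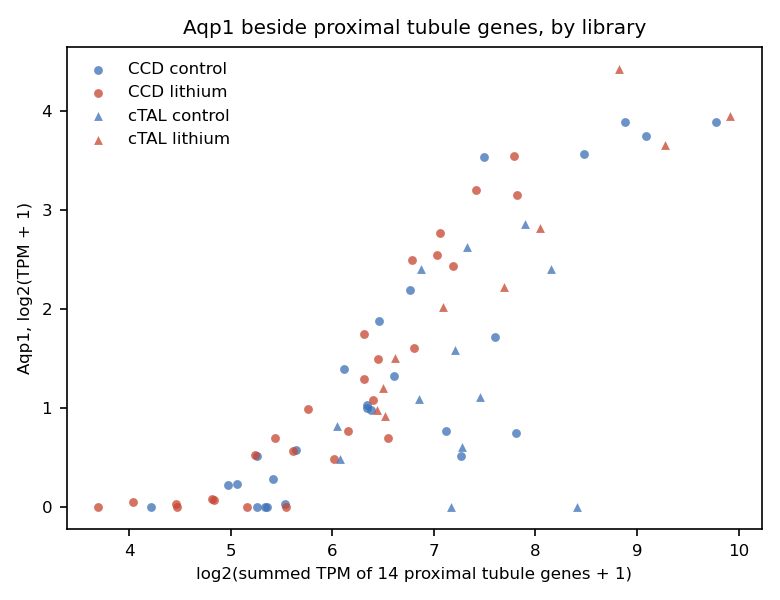
Aqp1 (vertical axis, log2(TPM + 1)) against the summed level of 14 proximal tubule genes (horizontal axis, log2(TPM + 1)) in 75 libraries. Circles are CCD and triangles cTAL, blue control and red lithium; the 3 cTAL lithium libraries above 11 TPM of Aqp1 also have the 3 highest proximal tubule sums of cTAL.

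In cTAL, where the family is sparse, lithium was compared with control at 72 h in the 4 members that reached the filter. None of the 4 was called, where 0.701% of all genes were called, and 1 had an unadjusted p under 0.05. That was Aqp1, at 0 to 6.26 TPM in controls (median 1.16) and 0.89 to 20.5 TPM with lithium (median 3.37), with a log2(TPM + 1) difference of 1.04 (SE 0.45, interval 0.11 to 1.96, adjusted p = 0.332 in limma). The 3 lithium libraries above the highest control, replicates 6, 8 and 9, held 11.7, 20.5 and 14.5 TPM of Aqp1 and proximal tubule sums of 620, 451 and 968 TPM, where the other 19 cTAL libraries had a median sum of 142 and a highest sum of 339 TPM. Aqp7, a glycerol channel of the proximal straight tubule, was at 5.04, 3.22 and 6.63 TPM in the same libraries. The highest Aqp7 value in cTAL, 6.81 TPM, was in control replicate 1. That library had a proximal tubule sum of 339 TPM and Aqp1 listed at 0. The part of proximal tubule RNA in the Aqp1 difference was not tested.
Aqp2 was at 2.11 to 9.07 TPM in cTAL controls and 1.33 to 9.68 TPM with lithium (-0.37, adjusted p = 0.503), and Aqp3 at 1.58 to 12.2 and 0.90 to 5.96 TPM (-0.37, adjusted p = 0.513). Aqp11, the member called higher in cTAL, was 2.42 ± 1.61 TPM (SD, n = 12) and 3.39 ± 1.51 (n = 10), a difference of 0.47 (interval -0.14 to 1.08, adjusted p = 0.513).

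The difference between the CCD and cTAL effects at 72 h was tested as an interaction. Aqp4 was the only member called, with a CCD effect below the cTAL effect by a log2 difference of -0.59 (interval -1.001 to -0.18, adjusted p = 0.0374), where 15.3% of genes were called and 3.44% lower. Its cTAL means were 0.336 TPM in controls and 0.566 TPM with lithium, below the filter of the cTAL comparison itself. The call was lost on set means (-0.63, adjusted p = 0.175), with CCD minus cTAL within sets (-0.63, adjusted p = 0.203), and without any of 5 of the 8 library sets. For Aqp2 the difference was -0.15 (interval -0.56 to 0.27, adjusted p = 0.719), for Aqp3 0.08 (interval -0.38 to 0.55, adjusted p = 0.88) and for Aqp6 -0.45 (interval -0.89 to -0.02, adjusted p = 0.168). So although Aqp2 passed the test in CCD and not in cTAL, its effects were not shown to differ on this scale.

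Genes that control Aqp2 transcription and the vasopressin signal were taken as a list of 28. At 72 h, 6 of 26 tested were lower and 1 was higher (median -0.18, all genes -0.00), and at 36 h 7 of 27 were lower and 1 higher (median -0.13, all genes 0.13). At 24 h 4 were lower and 2 higher of 27, and at 12 h 3 and 2 of 27. Over all genes, 37.3% were called at 72 h (15.2% lower), 34.8% at 36 h (9.28% lower), 25.7% at 24 h (5.77% lower) and 11.7% at 12 h (3.78% lower). The share of the list called was below that of all genes at 72, 36 and 24 h and above it at 12 h, and its share called lower was above that of all genes at each time, a difference that was not tested. Avpr2, the V2 receptor, was 854, 944 and 1009 TPM in controls and 440.3, 444 and 457 TPM with lithium at 36 h, and ran from 408 to 869 TPM (median 694) and from 344 to 569 TPM (median 419.6) at 72 h. Its groups were apart at 36 h and overlapped at 72 h, with log2(TPM + 1) differences of -1.06 (adjusted p = 4.72e-07) and -0.68 (adjusted p = 2.23e-09). At 12 h Avpr2 lay the other way, at 588 to 758 TPM in controls and 775 and 948 TPM with lithium. At 24 h it was 738 to 917 TPM in controls and 628 to 700 TPM with lithium. Groups did not overlap for 34.5% (12 h), 44.3% (24 h) and 49% (36 h) of all genes.
Adcy3, an adenylyl cyclase that makes cyclic AMP, was at 0.68, 0.80 and 1.10 TPM in controls and 3.38, 3.4 and 4.27 TPM with lithium at 36 h (1.33, adjusted p = 6.34e-05), and was also higher at 72 h (0.62, adjusted p = 1.06e-06). Nfat5, the transcription factor of the tonicity response (-0.67), and Cebpb, a leucine zipper factor (-0.55), were lower at 72 h (adjusted p = 0.000188 and 0.000199). Tfap2b, a transcription factor (-0.91), and Prkar1a, a regulatory subunit of protein kinase A (-0.26), were lower at 36 h (adjusted p = 0.0015 and 0.00171). Avpr2 and Tfap2b belong to the principal cell list as well. Tfap2b is not particular to principal cells here, with control means at 72 h of 7.81 TPM in CCD and 39.3 TPM in cTAL.

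Genes of Aqp2 vesicle traffic and turnover formed a list of 31, all tested. They moved in both directions, with 7 lower and 3 higher at 72 h, 7 lower and 5 higher at 36 h, 2 lower and 6 higher at 24 h, and 3 lower and 2 higher at 12 h. The totals of both directions lay near the share of all genes called, 37.3%, 34.8%, 25.7% and 11.7% at the same times. Of all genes, 15.2%, 9.28%, 5.77% and 3.78% were called lower. The list's share called lower was above these at each time, by little at 24 h, a difference that was not tested. The list's medians were -0.08, 0.01, 0.01 and -0.01, against -0.00, 0.13, 0.13 and 0.06 over all genes. Anxa2, an annexin of vesicle fusion, was higher at 36 h (0.73, adjusted p = 3.24e-06) and 72 h (0.44, adjusted p = 1.31e-09). Stub1, the ubiquitin ligase CHIP, was 299, 328 and 357 TPM in controls and 501, 522 and 536 TPM with lithium at 36 h (0.66, adjusted p = 6.79e-07), and was higher at 72 h as well (0.40, adjusted p = 6.69e-09).
Hspa8, the chaperone Hsc70 that takes part in endocytosis, was higher at 36 h (0.95, adjusted p = 2.16e-07). Vamp8, a vesicle SNARE, was lower at 36 h (-0.35, adjusted p = 0.00144), and Rab11a, of recycling endosomes (-0.24, adjusted p = 6.11e-05), and Akap7, an anchor of protein kinase A (-0.52, adjusted p = 0.000371), were lower at 72 h. In cTAL no gene of either list was called.

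The genes whose levels ran most like each abundant member were found by Pearson's r of log2(TPM + 1) over the 53 CCD libraries among 9511 genes, as a description; the libraries share depth, sets and treatment. For Aqp2 these were Bcat2 (0.82) and Ivd (0.79), enzymes of branched-chain amino acid breakdown, and Ndrg1 (0.80). For Aqp3 they were the trans-Golgi adaptor Gga2 (0.89), the kidney cadherin Cdh16 (0.89) and the lysosomal precursor Psap (0.88). For Aqp4 they were the lipid phosphatase Plpp3 (0.85), the sialyltransferase St6gal1 (0.82) and Nipal1 (0.81). For Aqp6 they were Slc4a1 (0.89), the chloride-bicarbonate exchanger of acid-secreting intercalated cells, Ubqln4 (0.86) and the growth factor Btc (0.85). Between members, r was 0.61 for Aqp2 with Aqp3, 0.37 for Aqp2 with Aqp4, 0.17 for Aqp2 with Aqp6 and 0.68 for Aqp3 with Aqp4. For Aqp6 with Aqp3 it was 0.64 and for Aqp6 with Aqp4 0.62.

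The other 5 aquaporins with a row were at or near 0. Mip, the lens channel, reached 0.50 TPM, Aqp8 0.37, Aqp9, a glycerol channel of liver, 0.43 and Aqp12a 0.61 TPM in any library. Aqp7 reached 4.00 TPM in CCD and 6.81 TPM in cTAL, and across the 22 cTAL libraries r of its log2 level with the proximal tubule sum was 0.84.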

How the data were processed

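RNA sequencing values were taken as the authors' deposited TPM, given to 2 decimals for 32754 genes in 75 libraries. The submitters' processing notes name STAR 2.5.2b, RSEM 1.2.31 and the build Rnor_6.0. Sequencing depth is unknown, since TPM is scaled to the library total, so precision rests on the spread between libraries. Per the labels' protocols, SMARTer V4 cDNA was amplified for 15 PCR cycles and libraries were made with Nextera XT from 1 ng, which keeps no strand.

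The labels give 10 groups but do not say whether libraries come from separate rats. Comparisons used limma 3.58.1 (R 4.3.3) on log2(TPM + 1), a pseudocount of 1, with a mean-variance trend. Genes entered with at least 1 TPM in as many libraries as the smallest group. P-values were two-sided, adjusted by Benjamini-Hochberg over all genes tested and called under 0.05. The 72 h comparisons used their own groups, 12, 24 and 36 h a joint fit of 6 groups, segment contrasts a joint fit of 4 and time contrasts a joint fit of 8. Ratio tests were two-sided permutation tests, exact for groups under 10 libraries and with 100000 resamples otherwise, adjusted over 8 tests (Python 3.11.15, scipy 1.17.1, numpy 2.4.6, pandas 2.3.3, matplotlib 3.10.9). Scripts were tested on simulated data. Library sets came from average linkage over 12 genes of 2 separate levels, leaving out the aquaporins.

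Named genes were all 7 members, the other 5 aquaporins, up to 4 called genes of smallest p from the transcription and traffic lists at 36 and 72 h, and for members of at least 5 TPM the 3 genes of highest r. Members and lists were chosen with earlier results of these data known, and the principal and intercalated cell lists are no independent evidence. Alternatives were the pseudocount, the filter, 2 scalings, the trend, the groups fitted, the replicate block, set means, and leaving out libraries or sets. Leaving out libraries in time contrasts, the within-set segment contrast and leaving out sets in ratios were chosen after seeing the data. Promoter sequences are RefSeq's, assembly GRCr8.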

Additional observations from a re-analysis of the deposited data

Results flagged for a closer look

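In cTAL with lithium (10 libraries, the only group of 4 to 10 libraries, examined for 7 members), 3 members had a library far above the rest. Aqp2 was 9.68 TPM in replicate 1 with the next at 4.81 TPM, Aqp6 was 1.16 TPM in the same library with the next at 0.61 TPM, and Aqp5 was 0.66 TPM in replicate 4 with the next at 0.03 TPM. By chance the rule marks about 1 in 20 groups of normally distributed values. These were low linear TPM values, with Aqp5 at 0 in 8 of the 10 libraries, so that rate does not hold here.

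The lithium effect differed between groups by a test of the difference itself in 5 cases. For Aqp4 at 72 h the CCD effect lay below the cTAL effect, with a log2 difference of -0.59 (adjusted p = 0.0374, limma). For Aqp2 the effect varied over the 4 times (F = 9.04, adjusted p = 0.00214), was lower at 36 h than at 24 h (-1.15, adjusted p = 0.0209) and was higher at 72 h than at 36 h (1.10, adjusted p = 0.000945). For Aqp4 it was lower at 36 h than at 24 h (-1.49, adjusted p = 0.0374). The contrasts that share 36 h use the same libraries, and none of the 5 was called on set means, where each group before 72 h is 1 value. Clock time can also differ between the times compared.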

How the results depend on the processing

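Of the counts of called members, these left the range of 1.5 times the reported value. On set means the count was 0 at 72 h (reported 4), 0 at 24 h (1), 0 at 12 h (3), 0 for the CCD minus cTAL effect (1), 0 for the effect over time (1), 0 for 36 h minus 24 h (2), 0 for 72 h minus 36 h (1) and 0 for controls over time (3). At 12, 24 and 36 h such a fit has 1 value in each group and takes its spread from 72 h, so its calls or losses say nothing of those groups' own spread. It was 2 at 72 h without lithium set 1, 2 at 24 h and 1 at 12 h with only the groups compared, and 1 at 12 h with the replicate block (Aqp3 adjusted p = 0.105, Aqp5 adjusted p = 0.116), which changed no other count by that much. For the CCD minus cTAL effect it was 0 with a pseudocount of 0.1, with no filter, within sets and without control set 2, 3 or 4 or lithium set 1 or 2, and 2 without control set 1. With median-of-ratios scaling or quantile normalization it was 2 for the effect over time and 2 for 72 h minus 36 h, where Aqp4 joined Aqp2, and with no filter it was 1 for 36 h minus 24 h. Leaving out 1 library gave counts of 1 to 3 at 12 h, 1 to 2 over time and 0 to 2 for 36 h minus 24 h. The 72 h log2 ratio of Aqp2 to Aqp3 became called at -0.35 without control set 4 and at -0.35 without lithium set 1. That of Aqp2 to principal cell genes lost its call on set means (-0.33) and without control set 1 (-0.22), control set 3 (-0.20), lithium set 2 (-0.28) or lithium set 3 (-0.23). Signs changed only among differences that were not called in either setting. Under median-of-ratios scaling Aqp3 became -0.14 at 24 h and -0.0045 for CCD minus cTAL. Under quantile normalization Aqp5 became -0.10 and Aqp11 -0.095 at 24 h, and Aqp3 -0.067 for CCD minus cTAL. For that contrast Aqp3 was -0.11 without control set 1 and -0.055 without lithium set 3, and Aqp2 was 0.14 without control set 3 and 0.011 without lithium set 1. Leaving out 1 library moved Aqp6 between -0.47 and 0.033 and Aqp1 between -0.94 and 0.47 at 36 h, Aqp3 between -0.044 and 0.12, Aqp5 between -0.14 and 0.28, Aqp6 between -0.24 and 0.022 and Aqp11 between -0.076 and 0.27 at 24 h, Aqp6 between -0.41 and 0.26 at 12 h, and Aqp6 between -0.37 and 0.13 for 36 h minus 24 h. The cause was not tested, except that set means leave fewer samples. The replicate numbers did not pair libraries: deviations of same-numbered libraries had median correlations of 0.07 (72 h), -0.03 (36 h), -0.00 (24 h), -0.03 (12 h) and 0.02 (cTAL), and in each comparison 1 library correlated best with its own number. Sequencing depth was unknown, and members under about 3 TPM rest on values near 0.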
